A study of Rattus norvegicus with 4 samples.

Results

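Potassium channel genes were compared between the hippocampi of stressed and nonstressed aged rats. The members were all probe sets to which the annotation of the array assigned a single gene symbol starting with Kcn. There were 126 such probe sets of 75 genes, out of 31042 probe sets other than Affymetrix controls. A probe set was tested when 2 or more of the 4 arrays read 100 or above, which held for 44 Kcn probe sets of 34 genes and left 82 untested. Over the whole array 14791 probe sets met this condition.

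The stressed group consisted of male Wistar rats that went through the chronic unpredictable mild stress battery, a changing series of mild stressors, for 4 weeks from an age of 15 months. The nonstressed controls were age-matched male Wistar rats under standard housing with free access to food and water. All rats were 16 months old when the hippocampus was dissected, after anaesthesia with ketamine and xylazine. Each group gave 2 arrays, and each array (GeneChip Rat Genome 230 2.0) carried total RNA pooled from 3 rats, so that no value belongs to a single animal. Whether different rats went into the pools of one group is not stated, and each p therefore measures the spread between pools, which can be technical.

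Potassium channels set the resting potential of neurons, repolarize the membrane after an action potential and limit repetitive firing. Voltage-gated channels (Kcna to Kcnd, Kcnh and Kcnq) open on depolarization, inward rectifiers (Kcnj) and tandem-pore leak channels (Kcnk) act near rest, and the Kcnm and Kcnn channels open with intracellular calcium. Auxiliary subunits (Kcnab, Kcnip, Kcne, Kcnmb) and electrically silent subunits (Kcng, Kcns, Kcnv) alter the trafficking and gating of the pore-forming proteins. In hippocampal pyramidal neurons, A-type channels of the Shal-related Kcnd family with Kcnip subunits dampen signals that travel along dendrites, while Shaker-related Kcna channels with Kcnab subunits act mainly in axons.

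Promoter sequences are shown for a set of called genes, to which the results below refer. Kcnab1, Kcnd2 and Kcnj4 had a lower signal in stressed rats, and Kcnj6, which belongs to the same inward rectifier family as Kcnj4, had a higher one. Each line gives the 250 bases before the annotated gene start, 5′ to 3′, as RefSeq lists it. Capitals mark the core of the cAMP response element (TGACG on either strand) and of the glucocorticoid response element (TGTTCT on either strand).
Kcnab1, GRCr8 chr2:151614301-151614550, plus strand: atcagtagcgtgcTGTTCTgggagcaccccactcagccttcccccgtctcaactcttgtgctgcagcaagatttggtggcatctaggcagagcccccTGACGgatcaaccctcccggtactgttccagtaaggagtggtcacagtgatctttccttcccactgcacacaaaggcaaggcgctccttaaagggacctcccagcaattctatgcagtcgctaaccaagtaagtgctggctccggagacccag
Kcnd2, GRCr8 chr4:50742235-50742484, plus strand: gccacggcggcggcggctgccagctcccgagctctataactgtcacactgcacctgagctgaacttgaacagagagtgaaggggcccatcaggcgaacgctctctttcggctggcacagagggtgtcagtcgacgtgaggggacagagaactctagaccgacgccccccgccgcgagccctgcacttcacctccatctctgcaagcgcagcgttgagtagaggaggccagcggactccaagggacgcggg
Kcnj4, GRCr8 chr7:112954548-112954797, minus strand: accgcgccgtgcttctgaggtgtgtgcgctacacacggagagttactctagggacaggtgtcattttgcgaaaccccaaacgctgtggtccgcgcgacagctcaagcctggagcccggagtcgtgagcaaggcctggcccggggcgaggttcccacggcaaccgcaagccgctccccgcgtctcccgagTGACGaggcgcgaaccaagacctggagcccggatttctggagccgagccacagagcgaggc
Kcnj6, GRCr8 chr11:47778349-47778598, minus strand: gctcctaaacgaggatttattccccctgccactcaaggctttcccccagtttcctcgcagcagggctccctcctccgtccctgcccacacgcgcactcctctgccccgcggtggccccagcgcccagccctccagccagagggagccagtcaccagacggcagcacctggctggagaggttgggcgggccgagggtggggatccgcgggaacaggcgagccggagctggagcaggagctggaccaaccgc

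The search on both strands, in which no match overlapped another, found the TGACG core at 153 bases and the TGTTCT core at 237 bases before the start of Kcnab1. Kcnj4 held a TGACG core at 61 bases before its start, and these letters were not found in the windows of Kcnd2 and Kcnj6. Of the 75 Kcn genes 52 had a promoter in the RefSeq table, as had 9 of the 13 genes with a called probe set. The TGACG core was present in 2 of these 9 windows and in 11 of the 52, against 18.2% of all 33469 windows of this length. The TGTTCT core was present in 1 of the 9 and in 6 of the 52, against 17.5% of all windows. The TATA box letters TATAAA, searched likewise, were in 2 of the 52 windows and in none of the 9, against 12.9% of all. Such a match is a description of the letters, and genes with other start sites can have other promoters.

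The arrays were alike in overall level, with median signals of 80.2 and 82.3 in stressed rats and 80.9 and 79.6 in nonstressed controls. Markers of hippocampal pyramidal and granule cells were present, and 11 of 12 of them were tested. Each marker, here and in the other lists, was counted at its brightest tested probe set. Neurod2 (log2 difference -0.79, stressed minus control) and Pou3f1 (-0.55) fell and Dsp (0.91) rose at adjusted p under 0.05 from limma. The other 8, Neurod6 and Prox1 among them, did not pass at that probe set. The summed signal of the 11 markers ranged from 10602.4 to 10889.0 in stressed rats and from 11210.2 to 11506.2 in controls. Over all tested probe sets 11.8% fell and 12% rose, and no marker list was tested against these shares. Of 10 tested interneuron markers 4 fell. The summed signal of the 10 ranged from 11536.9 to 11984.0 in stressed rats and from 12986.3 to 13296.0 in controls. Of 10 astrocyte markers 1 rose, and the sum ranged from 60103.2 to 61221.7 in stressed rats and from 54826.0 to 56387.1 in controls. Called were 2 rises and 1 fall among 11 oligodendrocyte markers and 1 rise and 2 falls among 7 microglial ones. Among 10 vascular markers 3 rose and 1 fell, and of 6 thalamic or striatal markers none was called. Dimmer tested probe sets of some markers were called too. They fell for Bcl11b (-1.24), Zbtb20 (-0.99 and -0.79), Aqp4 (-1.3), Slc1a3 (-0.43), Mbp (-0.51), Mobp (-0.18) and P2ry12 (-1.27). They rose for Zbtb20 (0.32), Cnp (0.38) and Lef1 (1.08, tested through the stressed arrays alone). The control signals of Dsp, of the oligodendrocyte marker Cspg4 and of the vascular marker Pdgfrb, all of which rose, lay below 100, so that these passed the minimum through the stressed arrays alone. The sums of the oligodendrocyte, microglial, vascular and thalamic or striatal lists ranged from 39473.2 to 40119.8, 3570.3 to 3587.8, 4341.9 to 4419.4 and 2326.0 to 2384.7 in stressed rats. In controls they ranged from 39962.7 to 42511.7, 3826.7 to 3847.9, 3970.5 to 4080.2 and 2306.1 to 2308.1, and no tested marker was at 0 on any array. The part of these shifts in the results on potassium channels was not tested, and in such whole-tissue RNA fewer cells of a type and less RNA per cell cannot be told apart.

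Of the potassium channel transcripts most did not pass the test, and the called changes were small. At adjusted p under 0.05 from limma, with Benjamini-Hochberg adjustment over all 14791 tested probe sets, 10 of the 44 Kcn probe sets fell, 4 rose and 30 did not pass. Over all tested probe sets 11.8% fell and 12% rose, 23.8% in either direction, so that the share of falls was 22.7% in the Kcn probe sets and that of rises 9.09%. Fewer passed whichever array was left out, in fits with 1 array in a group and less information on the spread. The called probe sets kept their direction in these fits. The log2 difference moved little for some, such as the called Kcnma1 probe set (-0.65 to -0.60), and more for others, such as Kcna4 (-0.38 to -0.23). Without an intensity trend 5 fell and 3 rose. The falls were those of Kcna1, Kcna4, Kcnab1, Kcnd2, Kcnip4 (both probe sets), Kcng2, Kcnv1, Kcnj4 and Kcnma1, and the rises were those of Kcnj6, Kcne2, Kcnab2 and Kcnc4. The median log2 difference, stressed minus control, was -0.05 over the 44 probe sets and 0.02 over all tested ones, and the differences of the called members were between 0.24 and 0.86 in size. The groups did not overlap in 26 of the 44 probe sets (59.1%), 8 of them higher and 18 lower in stressed rats, and all 14 called probe sets were among them. Over all tested probe sets the share was 64.4%, with 34.9% higher and 29.5% lower. With a gene counted once, at its tested probe set with the highest mean signal, 3 of 34 genes rose and 7 fell.

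None of the 44 tested Kcn probe sets reached the thresholds of the study's methods, at least 2-fold with unadjusted p under 0.05. The p came from limma here, and 1.60% of all tested probe sets passed. The study also admitted probe sets by a present call, which was not used here. Dim Kcn probe sets that passed without the filter are given below. An unadjusted p under 0.05 from limma, whatever the fold, was found for 5 higher and 11 lower Kcn probe sets. The share of all tested probe sets at that p was not taken, so these counts cannot be set against the array. At that p and 1.5-fold or more 3 passed (5.83% of all), those of Kcne2, Kcnma1 and Kcnip4. The methods' t-test, which shares no information on the spread between probe sets, called 0 of 44 at adjusted p under 0.05 (smallest adjusted p = 0.0948). It called only 18 of all 14791 tested probe sets at that threshold. At unadjusted p under 0.05 from this t-test 11 Kcn probe sets passed, 3 higher and 8 lower. For this count too the share over all tested probe sets was not taken. An exact permutation test of 2 against 2 arrays cannot give a two-sided p below 0.333. Calls named below as lost without an array come from fits that left 1 array in a group.

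**Figure D1:**
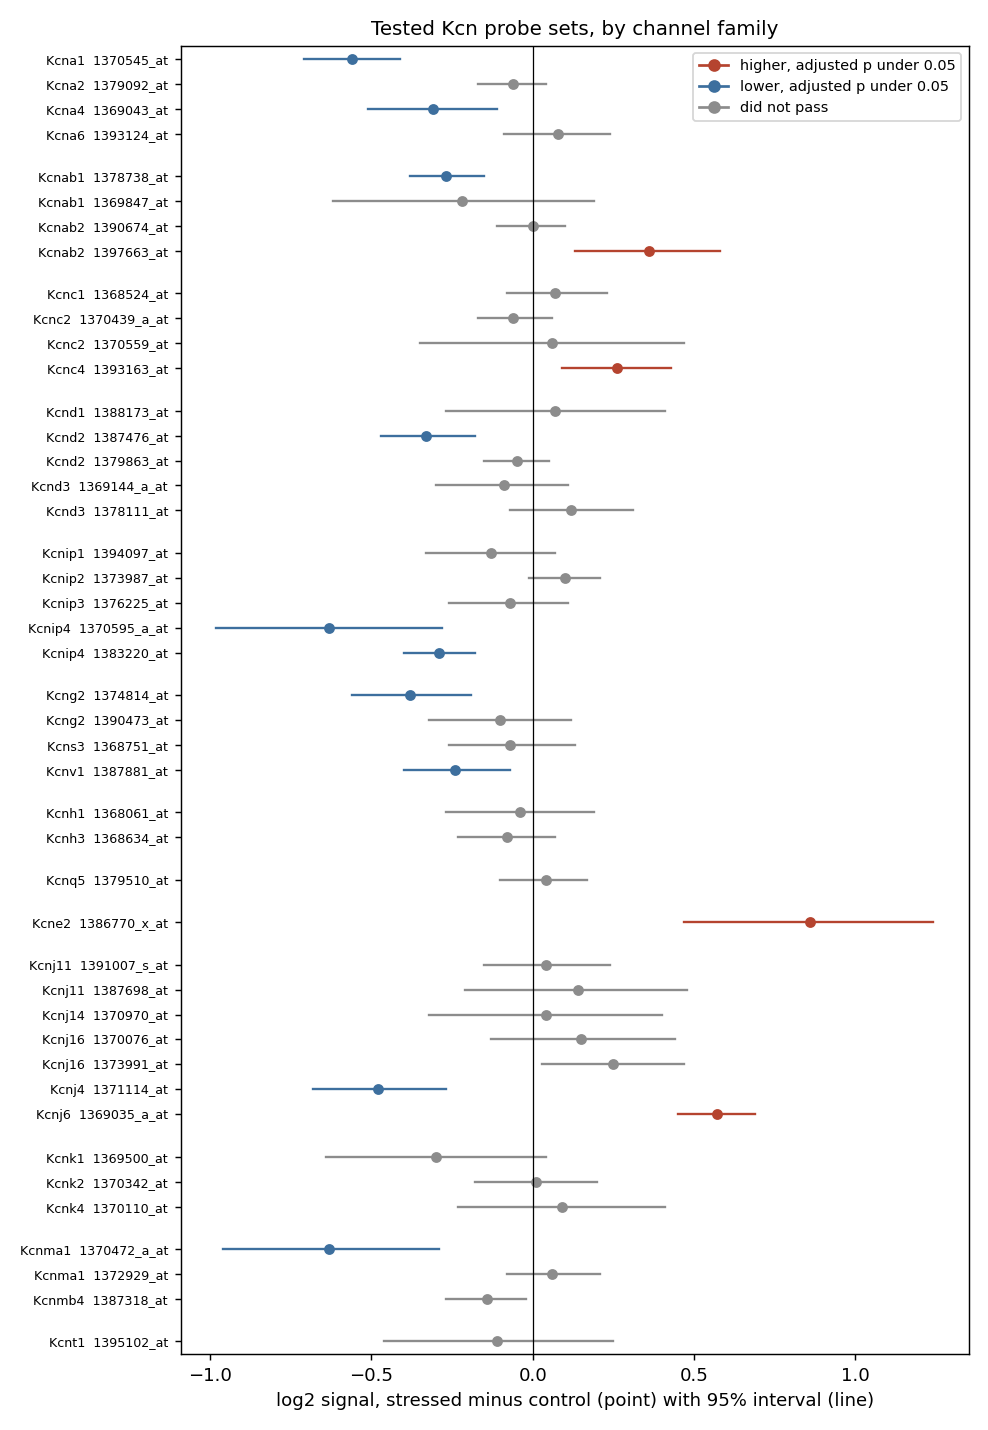
Difference in log2 signal between stressed rats and controls for the 44 tested Kcn probe sets, grouped by channel family. The horizontal axis is log2 signal, stressed minus control, points are limma estimates from 2 arrays a group, lines are 95% intervals, and colours mark the 4 probe sets that rose and the 10 that fell at adjusted p under 0.05. The falls are 2 each in the Kcna, Kcnip (both of Kcnip4) and silent subunit families. There is 1 fall each in the Kcnab, Kcnd, Kcnj and Kcnma families. The differences run from -0.63 (Kcnip4 and Kcnma1) to 0.86 (Kcne2), at probe sets that were tested through the arrays of a single group.

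Shaker-related channels and their beta subunits were the first group of axonal channels examined. Of 4 tested Kcna probe sets 2 fell and none rose, and of 4 tested Kcnab probe sets 1 fell and 1 rose. Over all tested probe sets 23.8% were called in either direction. No family count, here or below, was tested against that share. Kcna1 encodes a low-threshold channel that restrains axonal excitability, and its loss causes seizures in mice. Its signal was 429.2 and 436.8 in stressed rats, against 651.9 and 624.6 in controls. The stressed values were close together and both lay well below the controls, and the signal fell by 32.1% (log2 difference -0.56, standard error 0.07, adjusted p = 0.00119 from limma). This call was kept without any one of the 4 arrays (adjusted p 0.0028 to 0.0197).

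Kcna4 encodes an A-type channel that inactivates rapidly and is found in axons and terminals. It had signals of 361.3 and 400.5 in stressed rats and 449.0 and 494.5 in controls (log2 difference -0.31, standard error 0.09, adjusted p = 0.0384 from limma). The groups did not overlap, but the gap between them was of the size of the spread within each, and the call was lost without stressed replicate 1 (adjusted p = 0.146), control replicate 1 (0.0707) or control replicate 2 (0.202) and also without an intensity trend (0.0826) or without the filter on dim probe sets. Kcna2, which assembles with Kcna1 in axons, had 1761.9 and 1757.4 in stressed rats and 1866.2 and 1805.4 in controls. Its log2 difference of -0.06 did not pass (95% interval -0.17 to 0.04, adjusted p = 0.368 from limma), and neither did that of Kcna6 at 0.08 (-0.09 to 0.24, adjusted p = 0.467 from limma).

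Kcnab1 encodes a beta subunit that gives rapid inactivation to Kcna channels. The brighter of its tested probe sets had signals of 2215.9 and 2067.1 in stressed rats and 2559.2 and 2584.4 in controls and fell by 16.8% (log2 difference -0.27, standard error 0.05, adjusted p = 0.00843 from limma). Both stressed values lay below both controls. The call was lost without control replicate 1 (adjusted p = 0.0524) or control replicate 2 (0.0649) and without an intensity trend (0.0658). The dimmer probe set, at 122.2 and 129.8 in stressed rats and 172.6 and 124.2 in controls, had a similar difference of -0.22 with a wide interval (-0.62 to 0.19) and overlapping groups.

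Kcnab2 encodes the other main beta subunit of brain Kcna channels. Its brighter probe set had 3899.5 and 4069.9 in stressed rats and 4057.0 and 3937.4 in controls, with overlapping groups and a log2 difference between -0.11 and 0.10 at 95% confidence. The dimmer one rose, with 270.2 and 263.7 in stressed rats against 211.4 and 205.6 in controls (log2 difference 0.36, standard error 0.10, adjusted p = 0.0327 from limma). That call was lost in each removal of an array (adjusted p 0.0854 without stressed replicate 2, 0.0956 without control replicate 1, 0.113 without stressed replicate 1 and 0.129 without control replicate 2).

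The Shal-related channels carry the dendritic A-type current of hippocampal neurons. Of 5 tested Kcnd probe sets 1 fell and none rose, and of 5 tested Kcnip probe sets 2 fell and none rose. Kcnd2 encodes the main Shal-related pore subunit of CA1 pyramidal dendrites. One of its probe sets had 1247.2 and 1131.8 in stressed rats and 1445.4 and 1534.6 in controls and fell by 20.2% (log2 difference -0.33, standard error 0.06, adjusted p = 0.00916 from limma). This call was lost without control replicate 2 (adjusted p = 0.0781) and without an intensity trend (0.0602). The brighter probe set had 2004.9 and 2015.3 in stressed rats and 2081.6 and 2075.3 in controls. Its groups did not overlap either, yet its log2 difference was -0.05 (95% interval -0.15 to 0.05, adjusted p = 0.452 from limma).

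Kcnip4 encodes a calcium-binding Kcnd partner, one isoform of which slows the inactivation of the channel. It was the only one of the 10 genes with a pair of tested probe sets in which both were called. The brighter had 1175.6 and 1179.2 in stressed rats and 1456.5 and 1420.6 in controls and fell by 18.1% (log2 difference -0.29, standard error 0.05, adjusted p = 0.00491 from limma). This call was kept without any one array (adjusted p 0.018 to 0.0431). The dimmer had 78.4 and 87.9 in stressed rats and 124.6 and 132.5 in controls (log2 difference -0.63, standard error 0.15, adjusted p = 0.0214 from limma), and its stressed signals lay below the minimum of 100, so that it was tested through the control arrays alone. It was lost without stressed replicate 1 (adjusted p = 0.081), control replicate 1 (0.0832) or control replicate 2 (0.126), and without the filter.

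The remaining members of these families did not pass. Kcnd1 and Kcnd3 had log2 differences of 0.07, -0.09 and 0.12. Kcnip2, an accelerating partner of Kcnd channels, had 1697.0 and 1632.0 in stressed rats and 1572.6 and 1527.5 in controls (log2 difference 0.10, 95% interval -0.01 to 0.21, adjusted p = 0.16 from limma). Kcnip1 and Kcnip3, which is also known as the transcriptional repressor DREAM, had differences of -0.13 (-0.33 to 0.07) and -0.07 (-0.26 to 0.11).

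**Figure D2:**
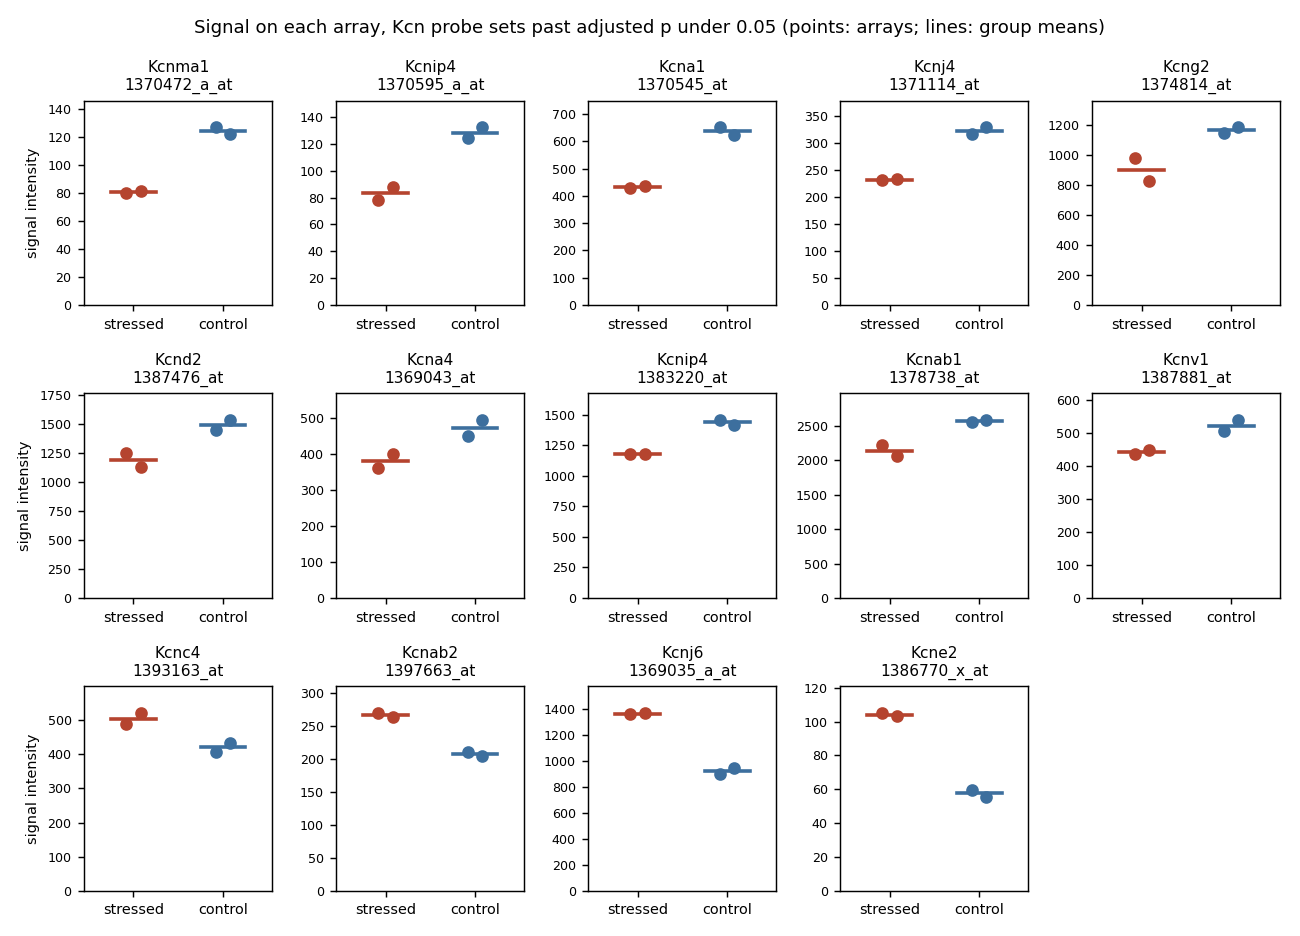
Signal intensity (vertical axes, linear scale from 0) on each array for the 14 Kcn probe sets past adjusted p under 0.05, ordered by log2 difference. Points are single arrays of pooled RNA, stressed on the left and control on the right of each panel, and lines are group means. No panel shows overlapping groups, and in Kcna1, Kcnj4 and Kcnj6 the distance between the groups is much larger than that between the arrays of a group.

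Shaw-related channels allow fast repolarization, and Kcnc1 and Kcnc2 are characteristic of fast-spiking interneurons. Of 4 tested Kcnc probe sets 1 rose and none fell. Kcnc4, which encodes a rapidly inactivating member, had 487.8 and 520.2 in stressed rats and 407.2 and 434.0 in controls, a rise of 19.8% (log2 difference 0.26, standard error 0.07, adjusted p = 0.0407 from limma). The call was lost without stressed replicate 1 (adjusted p = 0.0577), stressed replicate 2 (0.162), control replicate 1 (0.171) or control replicate 2 (0.0899), without an intensity trend (0.078) and without the filter. Kcnc1 had 745.0 and 724.6 in stressed rats and 664.4 and 732.7 in controls, with overlapping groups and a difference of 0.07 (95% interval -0.08 to 0.23). The brighter Kcnc2 probe set had 1119.6 and 1109.5 against 1180.2 and 1143.0 in controls, a difference of -0.06 (-0.17 to 0.06). Of the 10 tested interneuron markers 4 fell, and a relation to the Kcnc genes was not tested.

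Electrically silent subunits form no channel alone and modify Kcnb channels. Of 4 tested probe sets of this group 2 fell and none rose. Kcng2 had 978.9 and 827.0 in stressed rats and 1146.8 and 1187.9 in controls at its brighter probe set (log2 difference -0.38, standard error 0.08, adjusted p = 0.0138 from limma). The stressed arrays were further apart than the controls, and the call was lost without control replicate 1 (adjusted p = 0.0675) or control replicate 2 (0.0997) and without an intensity trend (0.0713). Its other tested probe set, at 260.6 and 241.7 against 268.2 and 271.2 in controls, had a difference of -0.10 (95% interval -0.32 to 0.12). Kcnv1, a brain-enriched silent subunit, had 437.8 and 449.4 in stressed rats and 505.7 and 539.1 in controls (log2 difference -0.24, standard error 0.07, adjusted p = 0.0468 from limma). It lay nearest to the threshold of all called members and was lost without stressed replicate 1 (adjusted p = 0.141), stressed replicate 2 (0.0919), control replicate 1 (0.0867) or control replicate 2 (0.213), after quantile normalization, without the filter and without an intensity trend (0.0826). Kcns3 had a difference of -0.07 (-0.26 to 0.13).

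Other voltage-gated families gave little. Kcnh1 and Kcnh3, of the ether-a-go-go family, had differences of -0.04 (95% interval -0.27 to 0.19) and -0.08 (-0.23 to 0.07). Kcnq5, which contributes to the M-current that brakes repetitive firing, had 1735.5 and 1722.3 in stressed rats and 1777.6 and 1597.3 in controls. The groups overlapped, and the difference of 0.04 had an interval of -0.10 to 0.17. The Kcnq1 and Kcnq3 probe sets and 2 of 3 Kcnq5 probe sets were not tested, with signals of at most 72.9.

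Inward rectifiers moved in both directions, with 1 rise and 1 fall among 7 tested probe sets. Kcnj6 encodes a G protein-activated channel (GIRK) that carries the slow inhibitory current evoked by GABA-B and other receptors. Its signal was 1361.0 and 1368.8 in stressed rats, against 898.1 and 943.1 in controls. The stressed arrays were nearly equal and both lay far above the controls, a rise of 48.3% (log2 difference 0.57, standard error 0.05, adjusted p = 3.49e-04 from limma), the smallest p of all Kcn probe sets. The call was kept without any one array (adjusted p 0.00113 to 0.00861). The gene had 3 further probe sets that were not tested. One of them, just outside the filter, had 63.9 and 81.2 in stressed rats and 136.2 and 99.1 in controls, the opposite order, and the others had signals between 20.2 and 47.7. Partner subunits of the same channel were dim, with signals of 18.9 to 102.4 at the 3 probe sets of Kcnj3 and 35.3 to 75.4 at that of Kcnj9.

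Kcnj4 encodes a strong inward rectifier of the forebrain that stabilises the resting potential. It had 231.3 and 233.2 in stressed rats and 317.3 and 329.8 in controls. Both stressed values lay below the controls by far more than either group's spread, and the signal fell by 28.2% (log2 difference -0.48, standard error 0.09, adjusted p = 0.00833 from limma). The call was lost without control replicate 2 (adjusted p = 0.065). Its other probe set was dim, at 69.9 and 88.3 against 74.4 and 76.7 in controls. Kcnj16 encodes an astrocyte subunit that pairs with Kcnj10. Its brighter probe set had 329.0 and 345.9 in stressed rats and 267.5 and 300.9 in controls. The log2 difference of 0.25 had an unadjusted interval above 0 (0.03 to 0.47) but did not pass (adjusted p = 0.0951 from limma). Of the 10 astrocyte markers 1 rose, with a list median of 0.08, and a relation to Kcnj16 was not tested. Kcnj11, the pore of the ATP-sensitive channel, had differences of 0.04 (-0.15 to 0.24) and 0.14 (-0.21 to 0.48), and Kcnj14 one of 0.04 (-0.32 to 0.40). Kcnj10 itself was dim at its only probe set, with signals of at most 20.0 in stressed rats and 14.5 in controls, and was not tested.

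Tandem-pore leak channels showed no called change, with 3 tested of 16 probe sets. Kcnk1 had 111.8 and 137.7 in stressed rats and 157.5 and 148.0 in controls, and its difference of -0.30 had an interval of -0.64 to 0.04 (adjusted p = 0.182 from limma). Kcnk2, a channel opened by stretch and lipids, had 423.8 and 382.7 against 398.4 and 401.0 in controls, with overlapping groups and a difference of 0.01 (-0.18 to 0.20). Kcnk4 had one of 0.09 (-0.23 to 0.41).

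The large conductance calcium-activated channel, which speeds repolarization after calcium entry, was represented by 3 tested probe sets, of which 1 fell. Kcnma1 encodes its pore. The brighter probe set had 958.3 and 903.2 in stressed rats and 855.8 and 926.4 in controls, with overlapping groups and a log2 difference of 0.06 (95% interval -0.08 to 0.21, adjusted p = 0.5 from limma). The dimmer one had 79.9 and 81.6 in stressed rats and 127.1 and 122.3 in controls (log2 difference -0.63, standard error 0.15, adjusted p = 0.0193 from limma), again with both stressed signals below the minimum of 100. That call was lost without stressed replicate 1 (adjusted p = 0.0599), stressed replicate 2 (0.0519), control replicate 1 (0.104) or control replicate 2 (0.0929). Kcnmb4, the neuronal beta subunit, had 935.3 and 940.0 in stressed rats and 1068.7 and 1004.5 in controls, a difference of -0.14 (-0.27 to -0.02) that did not pass (adjusted p = 0.0953 from limma). Kcnt1, a sodium-activated channel, had one of -0.11 (-0.46 to 0.25). None of the 3 Kcnn probe sets was tested.

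**Figure D3:**
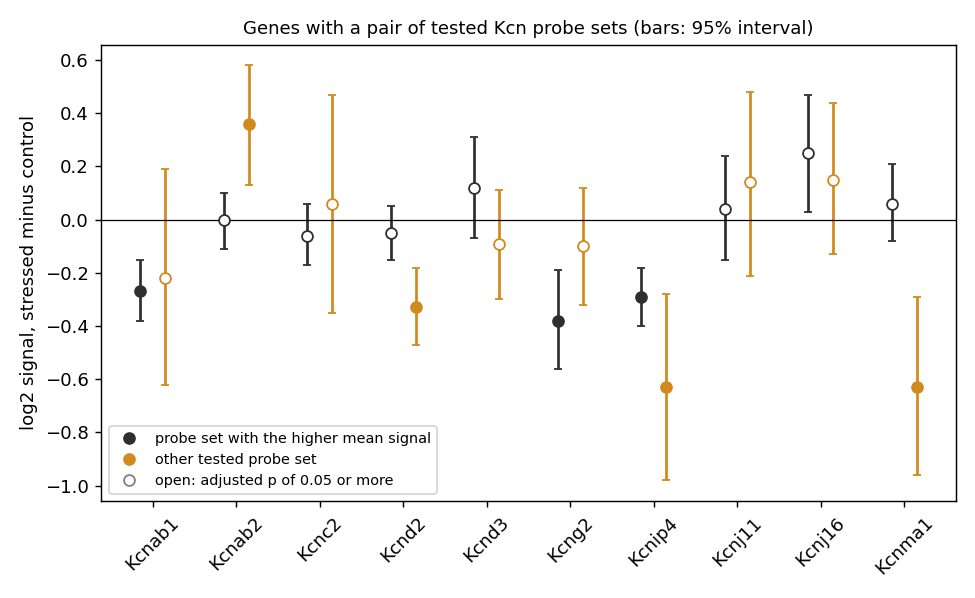
Difference in log2 signal (vertical axis, stressed minus control) for the 10 Kcn genes with a pair of tested probe sets. Dark points are the probe set with the higher mean signal and orange points the other one, filled points passed adjusted p under 0.05, and bars are 95% intervals from limma. In Kcnip4 both lie below 0, whereas in Kcnma1 the brighter lies at 0.06 and the dimmer at -0.63. The dimmer probe sets of these genes were tested through the control arrays alone.

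Several genes thus gave different answers at different probe sets. Among the 10 genes with a pair of tested probe sets, both were called in 1, a single one in 5 and none in 4. The difference between the probe sets of a gene was tested by limma on their within-array log2 ratio over all 2990 such pairs of the array, a comparison added after the values were seen, and 26.7% of all pairs passed adjusted p under 0.05. Among the 10 Kcn pairs 2 passed. The dimmer minus the brighter probe set differed by -0.69 for Kcnma1 (standard error 0.17, adjusted p = 0.0209 from limma). For Kcnd2 it differed by -0.28 (standard error 0.08, adjusted p = 0.0328 from limma). The dimmer Kcnma1 probe set was tested through the control arrays alone, so that the filter favoured a negative value. The same holds for the dimmer probe set of Kcnip4. For Kcnab2 the difference of 0.36 did not pass (adjusted p = 0.0578 from limma), and neither did those for Kcng2 (0.27, adjusted p = 0.128), Kcnip4 (-0.34, adjusted p = 0.18) and Kcnab1 (0.05, adjusted p = 0.884).

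Kcne2 had the largest log2 difference of all tested Kcn probe sets. It encodes a single-pass subunit that, in mice, is abundant in the epithelium of the choroid plexus. The tested probe set had 105.0 and 103.3 in stressed rats and 59.8 and 55.4 in controls, a rise of 80.9% (log2 difference 0.86, standard error 0.17, adjusted p = 0.00963 from limma), and its control signals lay below the minimum of 100. The call was lost without control replicate 2 (adjusted p = 0.0647). The suffix x of this probe set marks probes that can also bind other transcripts. A further probe set of Kcne2, just outside the filter, had 94.7 and 89.8 in stressed rats and 40.0 and 45.1 in controls, and the remaining one had signals of 0.9 to 6.6.

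The tested choroid plexus markers were higher in stressed rats as well. Of 6 tested markers 4 rose, none fell and 2 did not pass, with a median log2 difference of 0.74. Over all tested probe sets the median was 0.02 and 12% rose. Dim and untested were Kl, at 19.0 and 9.7 in stressed rats and 20.2 and 29.5 in controls, and Cldn1, at 62.7 or less. A further Aqp1 probe set, also untested, had 77.3 and 72.9 in stressed rats and 51.9 and 80.9 in controls. Sostdc1 had 1139.7 and 1070.5 in stressed rats and 617.2 and 586.5 in controls (log2 difference 0.88, adjusted p = 1.10e-04 from limma). Folr1 had 324.8 and 308.0 against 200.2 and 182.6 in controls (0.73, adjusted p = 0.00253 from limma). Prlr and Aqp1 rose by 0.81 and 0.75 (adjusted p 0.0135 and 0.013 from limma), and the control signals of Aqp1, at 69.1 and 73.5, lay below 100, so that it was tested through the stressed arrays alone. Transthyretin (Ttr), the most abundant product of this epithelium, had 12992.4 and 11938.5 in stressed rats and 9449.9 and 11337.7 in controls and did not pass (0.27, adjusted p = 0.0579 from limma), and neither did Otx2 (0.20). The summed signal of the 6 ranged from 13846.8 to 15079.2 in stressed rats and from 10667.2 to 12440.7 in controls, and none was at 0. The number that rose was 2 without stressed replicate 1, when Prlr (adjusted p = 0.0501) and Aqp1 (0.0695) were lost. Aqp1 was also lost without control replicate 1 (0.0721) or control replicate 2 (0.0621), and Prlr without control replicate 2 (0.087). Kcnj13, another channel of the choroid plexus epithelium, was dim, at 29.0 and 26.7 in stressed rats and 23.4 and 23.5 in controls. The part of choroid plexus tissue in the rise of Kcne2 was not tested.

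**Figure D4:**
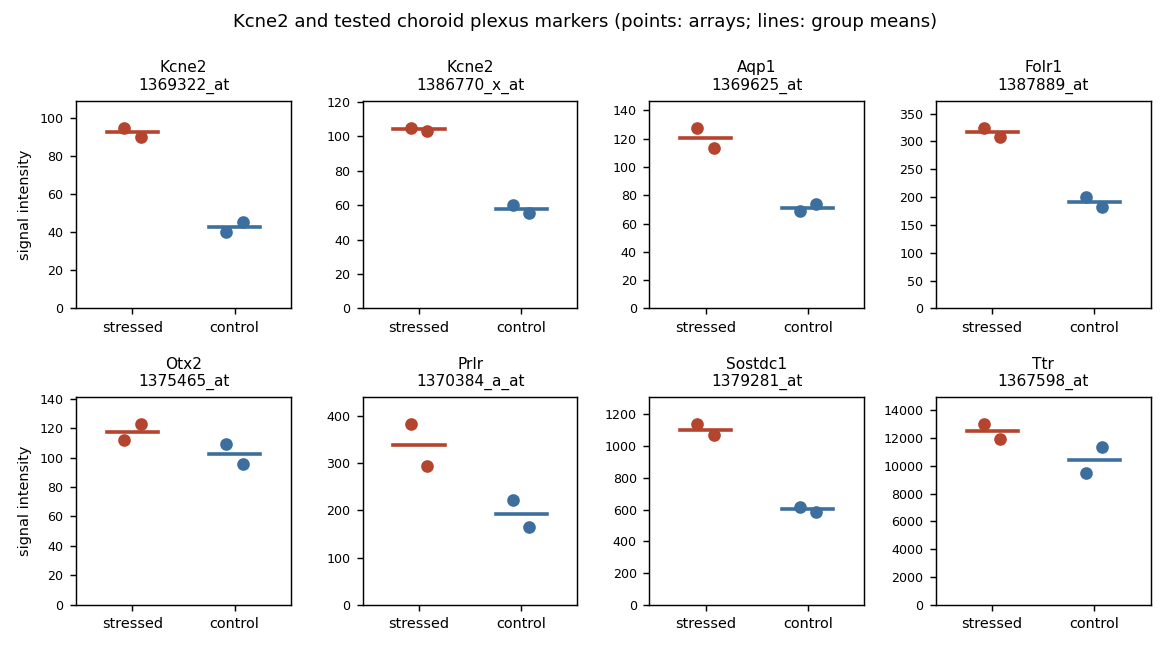
Signal intensity (vertical axes, linear scale from 0) on each array for Kcne2, at its tested and its brighter untested probe set, and for the 6 tested choroid plexus markers. Points are arrays, stressed on the left and control on the right, and lines are group means. The groups do not overlap in any panel, and Sostdc1, Folr1 and Kcne2 stand furthest apart relative to their spread.

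Of the 82 probe sets that were not tested, 61 had a signal below 50 on all arrays, and 41 genes had no tested probe set. The member nearest to the filter from outside was the Kcnj6 probe set with a second-highest signal of 99.1, and the nearest from inside was that of Kcne2 with 103.3. Of the tested Kcn probe sets 3 passed through the arrays of a single group, those of Kcne2, Kcnip4 and Kcnma1, and each was among the called. Without the filter, 4 of 126 Kcn probe sets were 2-fold different at unadjusted p under 0.05 from limma. The share over all unfiltered probe sets was not taken, so this count cannot be set against the array. The 4 were those of Kcne2 (1.12 at its untested probe set, adjusted p = 0.0236 from limma), Kcnq3 (1.84), Kcnh5 (3.49) and Kcnma1 (-2.87). The last 3 had signals of at most 39.8 and did not pass adjusted p. A low signal at a probe set says only that this probe set was dim, since detection calls were not used here.

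Proteins that assemble, anchor or regulate potassium channels were compared in the same way, each gene counted at its brightest tested probe set. Of 27 tested channel partners 10 rose, 5 fell and 12 did not pass, with a median log2 difference of 0.09, beside the 12% that rose and the 11.8% that fell over all tested probe sets. With all 41 tested probe sets of these genes counted, 13 rose and 11 fell, with a median of -0.04. Akap5, which anchors kinases and calcineurin near Kcnq and other channels, had 67.5 and 82.3 in stressed rats and 290.9 and 277.0 in controls (log2 difference -1.93, standard error 0.14, adjusted p = 1.48e-04 from limma). Both stressed signals lay below 100, so that Akap5 was tested through the control arrays alone. Among the brightest probe sets, Cntn2 was the other called partner that passed the minimum through a single group. Called dimmer probe sets of Nedd4 (-1.01) and Lingo1 (-0.79) also had stressed signals below 100 and were tested through the control arrays alone. Cntnap2, which gathers Kcna channels along myelinated axons, had 923.7 and 912.4 against 644.7 and 650.9 in controls (0.50, standard error 0.05, adjusted p = 8.21e-04 from limma). Its dimmer tested probe set went the other way, with 205.4 and 216.9 in stressed rats and 262.6 and 260.2 in controls. That difference of -0.31 did not pass (adjusted p = 0.0555 from limma). Adam23, a receptor of the Lgi proteins, had 2448.5 and 2370.9 against 1815.8 and 1916.4 in controls (0.37, standard error 0.05, adjusted p = 0.00202 from limma). At the brightest probe sets of Akap5, Cntnap2 and Adam23 the groups were well apart, and these calls were kept without any one array.

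Probe sets of a gene disagreed among the partners too. Snx27 sorts GIRK channels in endosomes, and of its 4 tested probe sets 2 fell (log2 differences -0.91 and -1.18), 1 rose (0.24, at the brightest) and 1 did not pass. The ubiquitin ligase Nedd4 had 5 tested probe sets, of which 2 fell, 2 rose and 1 did not pass. Its brightest had 2886.5 and 2824.0 in stressed rats and 5298.6 and 5497.7 in controls (-0.92, adjusted p = 2.44e-05 from limma), and a further one had 370.1 and 350.5 against 200.6 and 191.3 in controls (0.88, adjusted p = 7.66e-04 from limma). Dlg4, the scaffold PSD-95, fell by 1.13 on the log2 scale at its dimmer probe set, and its brighter one, at -0.04, did not pass. The counts of the partner list moved with the arrays used, at 6 rises and 6 falls when stressed replicate 1 was left out, 5 and 4 when stressed replicate 2 was, 4 and 3 when control replicate 1 was, and 3 and 3 when control replicate 2 was. Without an intensity trend 4 rose and 3 fell, and without the filter 5 rose and 5 fell.

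Among 15 tested genes of pumps and cotransporters, which restore or use the potassium gradient, 5 rose, 1 fell and 9 did not pass, with a median of 0.14, beside the same shares over all tested probe sets, and the difference from these shares was not tested. Of all 20 tested probe sets of these genes 6 rose and 1 fell. Slc12a5, the neuronal potassium-chloride cotransporter KCC, had 4087.7 and 3916.0 in stressed rats and 3331.9 and 3491.0 in controls (log2 difference 0.23, standard error 0.05, adjusted p = 0.0122 from limma). Wnk1, a kinase that controls such cotransporters, rose by 0.40 and Slc24a2, a potassium-dependent sodium-calcium exchanger, by 0.28. Their other tested probe sets, at 0.51 for Wnk1 and 0.03 for Slc24a2, did not pass. Slc12a2 rose by 0.22 and the glial sodium pump subunit Atp1b2 by 0.25 (0.53 at its other tested probe set). Fxyd7, a brain regulator of the sodium pump, fell by 0.36 on the log2 scale. The rises numbered 1 when control replicate 1 was left out, 2 when stressed replicate 1 was and 4 when either other array was, 1 without an intensity trend and 3 without the filter. The fall of Fxyd7 was lost without control replicate 2 (adjusted p = 0.0598).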

How the data were processed

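Total hippocampal RNA of stressed rats and nonstressed controls was profiled on 4 Affymetrix arrays, 2 per group. The deposited signal intensities were made by the authors with GCOS and scaled to a target value of 300 on each array. The scale is linear. Nothing further was done to align the arrays, the detection calls were left aside, and the number of arrays limits the precision.

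After removal of the 57 Affymetrix controls, signals were put on the log2 scale (a 0 counted as 0.1). Probe sets reading 100 or above on 2 or more arrays were tested with limma 3.58.1 (R 4.3.3), whose moderated spread followed the mean intensity. P-values were adjusted by the Benjamini-Hochberg method over all 14791 of them, at a threshold of 0.05. The comparison was tested on simulated data. Python 3.11.15 with pandas 2.3.3 and matplotlib 3.10.9 made the summaries and plots.

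The platform annotation gave the genes, and all 126 Kcn probe sets matched the same symbol in RefSeq by gene identifier. The members and lists (channel partners, potassium pumps and cotransporters, and 8 marker lists) were chosen with earlier results of these data known. Named were all called Kcn probe sets, the brightest of each family, the other tested probe sets of called genes, and the called partners with the smallest p. Members named beyond this rule complete their families and, with the markers, were named after their values were seen.

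Alternatives comprised no filter, quantile normalization, median centring, a signal of at least 200 on 2 arrays, a mean signal of at least 100, an offset of 50, signals below 50 raised to 50, no intensity trend, the methods' t-test on log2 signals, each array left out in turn, a replicate block, at least 1.5-fold, and the mean of the probe sets of a gene. A crossed block was added after seeing the data.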

Additional observations from a re-analysis of the deposited data

How the results depend on the processing

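Under the alternatives the log2 differences of the 14 called Kcn probe sets kept their direction, and among the 30 that had not passed 15 values changed sign. These were the brighter Kcnab2 probe set (0.01 after quantile normalization, 0.03 without stressed replicate 1 and 0.02 without control replicate 1), the dimmer Kcnab1 probe set (0.02 without control replicate 1, in a range of -0.45 to 0.02 over the removals), Kcnk2 (-0.06 without stressed replicate 1, in a range of -0.06 to 0.08) Kcnq5 (-0.04 without control replicate 2, in a range of -0.04 to 0.11), Kcnh1 (-0.10 to 0.02), the dimmer Kcnd3 (-0.19 to 0.01), the dimmer Kcnc2 (-0.21 to 0.32, and -0.02 without control replicate 1), Kcnj14 (-0.09 to 0.17, and -0.02 without control replicate 2), Kcnip3 (-0.18 to 0.04), the dimmer Kcnj11 (-0.00 to 0.28) and Kcnd1 (-0.09 to 0.23), each over the removals of an array. Of 647 values over the 44 tested probe sets, 574 kept direction and side of the threshold and 58 kept the direction but no longer passed.

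The counts of called probe sets depended on how the spread was estimated. Without an intensity trend 5 Kcn probe sets fell, against 10, and 5 genes were called, against 10. The methods' t-test called 0 Kcn probe sets in either direction and 0 Kcn genes, and 18 of all 14791 tested probe sets. Rises numbered 1 to 2 and falls 2 to 8 when an array was left out, and called genes 3 to 8, with the fewest without control replicate 2. Such a removal leaves 1 array in a group, whose spread is assumed to be that of the other group. At 1.5-fold 3 probe sets passed in place of 0, each of them tested through the arrays of a single group. With no filter 4 of 126 passed 2-fold, and the share over all unfiltered probe sets was not taken.

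A replicate block left 2 rises and 9 falls, and the calls of Kcnab2 (adjusted p = 0.061 from limma), Kcnc4 (0.0574) and Kcnv1 (0.0745) were lost. The numbers share no stated litter or batch, and the deviations of same-numbered arrays correlated at -0.11 over the tested probe sets. A crossed pairing, added after seeing the data, gave 4 rises and 9 falls. Under quantile normalization 4 rose and 9 fell, and with a mean signal of at least 100 3 rose and 10 fell.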
